A study of Mus musculus with 40 samples.

Results

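The HoxB cluster is a run of 10 protein-coding genes, Hoxb1 to Hoxb9 and Hoxb13, all read from the plus strand of mouse chromosome 11. The members are the cluster's genes by name, and the rule that lists them uses no measured value. They make up 10 of 21951 annotated protein-coding genes. From the start of Hoxb13 to the end of Hoxb1 the cluster spans 173.941 kb (mm10, chr11:96194316-96368256). Hoxb13 stands apart, since 72.009 kb separate its end from the promoter of Hoxb9, and the other 9 genes fill the last 96.8 kb.

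HOX proteins are homeodomain transcription factors that give cells of the embryonic body axis their position. Genes at the Hoxb1 end of the cluster are switched on first and furthest forward, in the hindbrain, while genes towards Hoxb13 are used later and further back, and the telencephalon forms in front of all of them. Silent Hox genes are held by Polycomb complexes, which deposit H3K27me3 over whole clusters, whereas Trithorax-type complexes place H3K4me3 at promoters in use. A promoter that carries both marks is called bivalent. H3 K27M is a histone mutant of diffuse midline glioma that inhibits the H3K27 methyltransferase of Polycomb repressive complex 2.

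H3K27me3 and H3K4me3 were profiled by ChIP-seq in oligodendrocyte precursor cells (OPCs) of hGFAP-Cre;K27M litters, 5 to 7 days old. The labels write the line as AMGFAP-Cre, and its Cre under the human GFAP promoter acts in neural stem and progenitor cells. Brainstems and dorsal telencephalons (cortex in the labels) were pooled by region and genotype, OPCs were caught with an antibody to PDGFRa, and all cultures were kept in proliferation medium, undifferentiated. Controls were littermates without K27M. There were 2 control and 2 K27M cultures of brainstem (59 and 61) and 3 control and 3 K27M cultures of telencephalon (59, 60 and 61), with 1 library per mark and culture, 20 libraries in all. A culture is a pool of animals, so the spread among cultures is that among pools.

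The peak lists held 4739 to 64808 peaks for H3K27me3 and 20961 to 31200 for H3K4me3. The peak files give no read depth, while the study's list of libraries gives total reads, which were not used to adjust the lists. K27M covered less of the genome with H3K27me3 than control in each of the 5 culture pairs. The OPC genes Pdgfra, Cspg4, Olig1, Olig2 and Sox10 had H3K4me3 and no H3K27me3 in all 10 cultures, and the microglial genes Aif1 and Cx3cr1 had no H3K4me3. Of the endothelial genes, Pecam1 had none and Cldn5 had H3K4me3 in 2 of 4 brainstem and 3 of 6 telencephalon libraries, and of the astrocyte genes, Aqp4 had it in 0 of 4 and 1 of 6 and Gfap in 2 of 4 and 4 of 6. Neuronal genes had H3K4me3 peaks as well. The telencephalic factor Emx2 had H3K4me3 in 6 of 6 telencephalon and 2 of 4 brainstem libraries. Irx1 and Irx2 had H3K27me3 in 0 of 4 brainstem and 6 of 6 telencephalon libraries. Their H3K4me3 was in 4 of 4 and 6 of 6, so by that mark they did not part the regions. The H3K4me3 libraries of telencephalon controls 60 and 61 carry the highest shares of duplicate reads in the study's list of libraries, and every telencephalic H3K4me3 peak within the cluster comes from them, so the part of duplication in those peaks was not tested.

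Sequence just upstream of 3 members shows some of the settings that the marks met. Hoxb1 had no H3K4me3 peak in any library, Hoxb4 and Hoxb8 had one in some brainstem libraries, and these 3 are the members that matched in the RefSeq promoter table (GRCm38.p6, the assembly also called mm10). Up to 250 bases before the start are shown 5′ to 3′ on the plus strand, with each CG in capitals, since CG-rich DNA is where both marks are usually found.
Hoxb1, chr11:96365508-96365751: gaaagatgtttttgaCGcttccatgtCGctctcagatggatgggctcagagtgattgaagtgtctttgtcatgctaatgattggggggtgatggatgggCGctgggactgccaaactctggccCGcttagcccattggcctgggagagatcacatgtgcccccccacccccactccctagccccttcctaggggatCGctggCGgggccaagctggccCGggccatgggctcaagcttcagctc
Hoxb4, chr11:96318017-96318266: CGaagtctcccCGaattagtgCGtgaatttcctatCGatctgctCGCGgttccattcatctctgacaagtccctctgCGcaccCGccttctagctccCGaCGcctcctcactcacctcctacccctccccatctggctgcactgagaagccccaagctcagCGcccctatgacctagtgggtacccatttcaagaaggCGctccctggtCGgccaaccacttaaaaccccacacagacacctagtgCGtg
Hoxb8, chr11:96281655-96281904: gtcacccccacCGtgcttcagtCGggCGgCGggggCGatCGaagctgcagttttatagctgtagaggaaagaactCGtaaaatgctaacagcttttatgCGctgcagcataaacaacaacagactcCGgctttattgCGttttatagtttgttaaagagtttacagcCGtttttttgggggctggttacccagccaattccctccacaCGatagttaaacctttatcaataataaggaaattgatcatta
These stretches held 7, 14 and 12 CG pairs, against a median of 6 over 32851 promoters of 250 bases, of which 92.1% held at least 1 CG on either strand (CG reads the same on both). Over the whole promoter window used here, 2000 bp upstream to 1000 bp downstream of a transcript start, CG pairs numbered 171 at Hoxb9, 154 at Hoxb7, 125 at Hoxb5, 114 at Hoxb8, 113 at Hoxb4, 102 at Hoxb6, 92 at Hoxb3, 89 at Hoxb1, 74 at Hoxb13 and 62 at Hoxb2, with a median of 80 over all genes. The order of CG content was not that of H3K4me3: Hoxb9, richest in CG, had no brainstem peak, and Hoxb2, poorest, had one in every brainstem library. At Hoxb2 the peak summit lay beyond the counted window in both brainstem controls and in K27M 59. A relation of CG content to H3K4me3 was not tested.

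The cluster also holds microRNA genes, and the marks combined over cultures differed between a pair of them in brainstem K27M only. Mir10a lies between Hoxb5 and Hoxb4 and Mir196a-1 between Hoxb13 and Hoxb9. Their mature products (RefSeq, plus strand, seed bases 2 to 8 in capitals) are shown because the seeds, by which a microRNA recognises its targets, differ.
mmu-miR-10a-5p, chr11:96317186-96317208: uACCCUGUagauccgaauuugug
mmu-miR-196a-5p, chr11:96265187-96265208: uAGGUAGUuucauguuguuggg

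H3K27me3 peaks lay over the promoters of 10 of 10 members in each of the 10 H3K27me3 libraries, in both regions and both genotypes. Over all protein-coding genes, 1272 of 21951 (5.79%) had such a peak in all 10. The count was 8 of 11 in HoxA, 9 of 9 in HoxC and 9 of 9 in HoxD, so this state was common to the Hox clusters. Peaks covered 100% of the cluster in brainstem control 59 and 92.8% in control 61, and 88.7% and 93.7% in brainstem K27M 59 and 61. In telencephalon the covered share was 86.6%, 99.5% and 99.8% in controls 59, 60 and 61 and 78.3%, 88.1% and 86.4% in K27M.

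**Figure D1:**
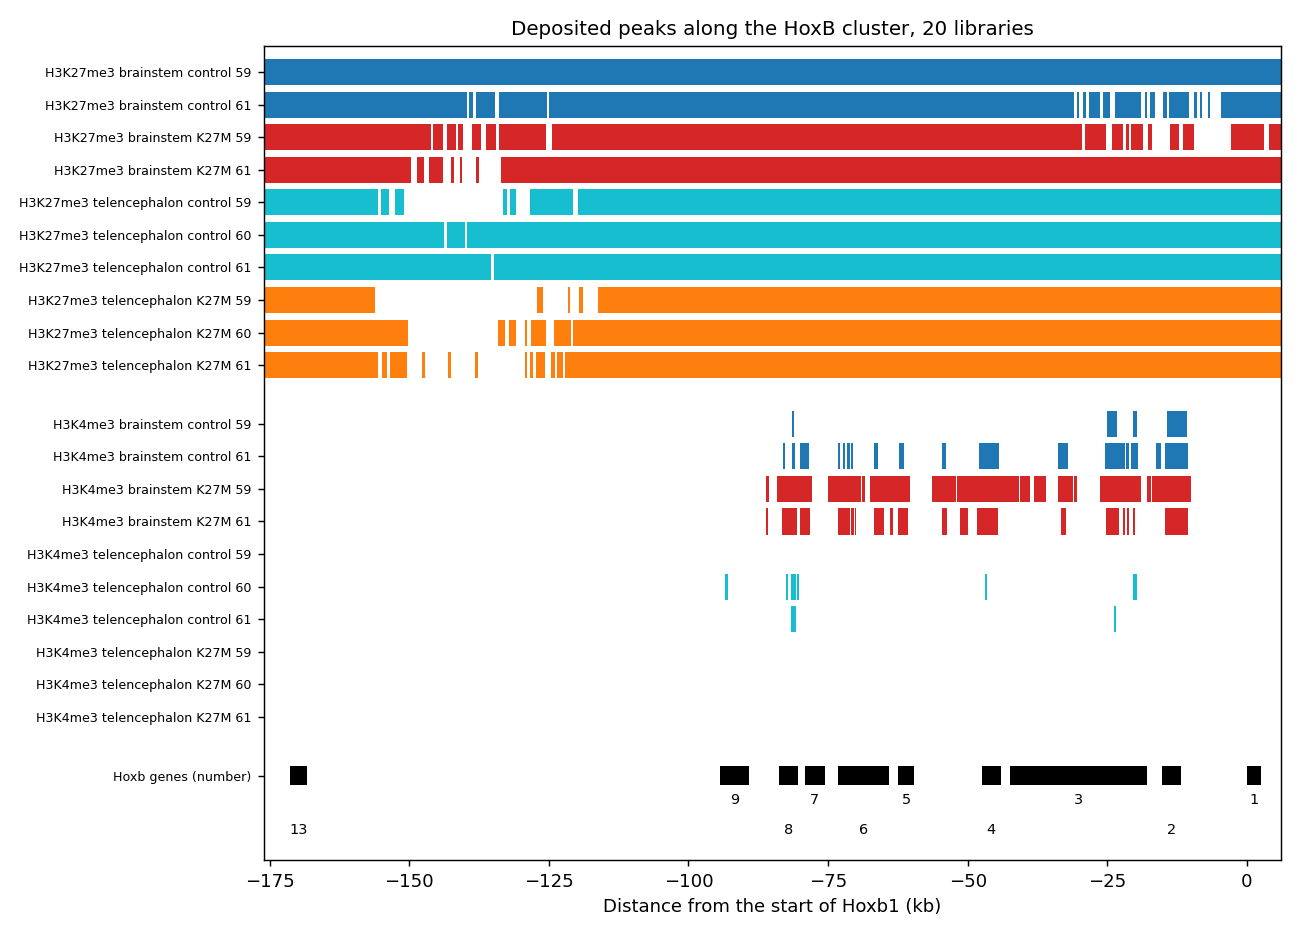
Peaks along the HoxB cluster, drawn to scale as distance in kb from the start of Hoxb1 (horizontal axis), 1 line per library: blue, brainstem control; red, brainstem K27M; cyan, telencephalon control; orange, telencephalon K27M; black, the Hoxb genes with their numbers. H3K27me3 (upper 10 lines) fills most of the cluster and is broken mainly between Hoxb13 and Hoxb9, while H3K4me3 (lower 10 lines) lies around Hoxb8 to Hoxb2, apart from 1 peak in Hoxb9, and is nearly all in brainstem.

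The share of the cluster under H3K27me3 in K27M minus that in the matched controls was −8.68 percentage points (SD 5.69, n = 5 pairs), lower in 4 pairs and higher in brainstem 61, by 0.976 (exact sign-flip permutation test, two-sided p = 0.125). With 5 pairs this test cannot go below 0.0625. From Hoxb9 to Hoxb1, without Hoxb13 and the stretch beside it, the difference was −0.70 points (SD 9.06, exact sign-flip permutation p = 1). Between regions, telencephalon minus brainstem was −1.11 points in controls (p = 0.8) and −6.94 in K27M (p = 0.2) by exact permutation over 10 splits, which cannot go below 0.1. These designs are too small for any of these differences to pass 0.05. In K27M both brainstem shares lay above all 3 telencephalon shares, and in controls the regions overlapped.

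The missing H3K27me3 was not spread evenly over the members. The Hoxb13 gene with its promoter and the stretch from Hoxb9 to Hoxb5 were 100% covered in all 10 libraries. The breaks fell in the 72.009 kb between Hoxb13 and the Hoxb9 promoter, which holds Mir196a-1 and no other HoxB coding gene, and, in 2 brainstem libraries, around Hoxb3 and Hoxb2.

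Between Hoxb13 and Hoxb9, H3K27me3 covered 100% and 97.3% in brainstem controls 59 and 61, against 92.1% and 84.9% in K27M. In telencephalon it covered 67.6%, 98.7% and 99.4% in controls 59, 60 and 61, against 47.5%, 71.3% and 67.1% in K27M. The difference was −20.0 percentage points (SD 10.1, n = 5), lower in K27M in 5 of 5 pairs (exact sign-flip permutation p = 0.0625, the smallest it can give). The ranges of the groups overlapped in telencephalon, because control 59 lay below K27M 60. The longest uncovered run was 29.0 kb, 16.2 kb and 8.41 kb in telencephalon K27M 59, 60 and 61, and 17.7 kb in telencephalon control 59, while it was at most 4.07 kb in the other 6 libraries. Longer lists cover more, so the share was also taken with the 4739 strongest peaks of each library: the difference was then −22.8 points (SD 10.6), again lower in 5 of 5 pairs. This evens the number of peaks and not their length. Brainstem control 59 kept 100% under 1 peak of 362.629 kb and telencephalon control 61 kept 99.4%, while the other controls lost some cover. By the study's list of libraries, K27M had fewer H3K27me3 reads than its control in brainstem 59 and telencephalon 59 and 61. In brainstem 61 and telencephalon 60 it had more. The part of peak length and of reads in the difference was not tested. The comparison of this stretch was added after the map had been seen.

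At the other end of the cluster the anterior genes showed a break in brainstem only. The stretch from Hoxb4 to Hoxb1 was 100% covered by 1 peak in the 6 telencephalon libraries, brainstem control 59 and brainstem K27M 61. It was 79.5% covered by 14 peaks in brainstem control 61 and 73.0% covered by 9 peaks in brainstem K27M 59, so the 2 broken libraries were 1 of each genotype and came from different cultures. With peaks of at least 3-fold enrichment the share was 49.1% and 48.8%, leaving uncovered runs of 26.4 kb and 26.6 kb over the end of Hoxb3 and all of Hoxb2 (mm10, chr11:96334744-96361181 and chr11:96336221-96362828). Hoxb1, beyond the break, kept its peak.

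Hoxb2, a hindbrain gene that acts in facial motor neuron development, had the weakest H3K27me3 of the members in those libraries. Its promoter window was covered over 1473 bp at 2.82-fold in control 61 and over 649 bp at 2.98-fold in K27M 59, and over all 3000 bp at 4.64 to 30.3-fold in the other 8. The same runs carried H3K4me3: 10.3 kb of H3K4me3 peaks lay in the run of control 61 and 14.9 kb in that of K27M 59. In the stretch uncovered in K27M 59, control 59 and K27M 61 had 6.06 kb and 7.74 kb of H3K4me3 and unbroken H3K27me3, so H3K4me3 peaks were there in all 4 brainstem cultures and the H3K27me3 break in 2. Cells with either mark and cells with both cannot be told apart in such a pool.

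**Figure D2:**
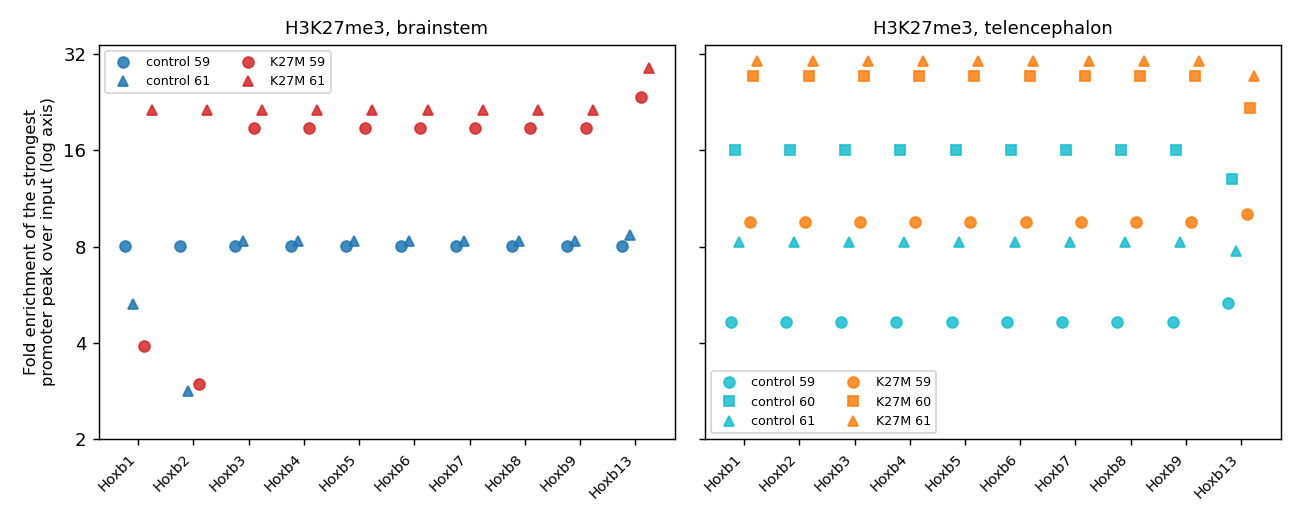
Fold enrichment of the strongest H3K27me3 peak over input at each member's promoter (log axis), brainstem left and telencephalon right, 1 point per library (circle 59, square 60, triangle 61). K27M points lie above the matched control at all members in 4 of 5 pairs; at Hoxb2 and Hoxb1 brainstem K27M 59 lies below its control.

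The H3K27me3 that remained stood out more from input in K27M. The strongest peak in the cluster reached 8.02 and 8.72-fold in brainstem controls 59 and 61 and 23.4 and 29.0-fold in K27M. In telencephalon it reached 5.35, 16.0 and 8.24-fold in controls 59, 60 and 61 and 10.1, 27.2 and 30.3-fold in K27M. K27M was higher in 5 of 5 pairs, by 1.37 on the log2 scale (SD 0.498, n = 5), or 2.58-fold, with 1.70-fold in telencephalon 60 the smallest and 3.68-fold in telencephalon 61 the largest (exact sign-flip permutation p = 0.0625, the smallest it can give). The groups did not overlap in brainstem and overlapped in telencephalon. A broad peak has a single value for its whole length, and the strongest peak was longer in the control of each pair. The lengths in control and K27M were 362.629 and 59.295 kb in brainstem 59 and 47.205 and 44.045 kb in telencephalon 59. The part of peak length and of reads in these ratios was not tested.

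Fold enrichment was also higher in K27M at most other marked genes in 4 of 5 pairs, by a smaller median. Over the 1272 genes with H3K27me3 in all libraries, the median log2 ratio of K27M to control was 0.37, 0.78, 0.31, −0.04 and 0.50 in brainstem 59 and 61 and telencephalon 59, 60 and 61. Over the 10 members it was 1.22, 1.36, 1.04, 0.77 and 1.88. Neighbouring members often lie in 1 broad peak, which has a single value, so these are not 10 separate measurements. In brainstem 59 Hoxb2 and Hoxb1 went the other way, with log2 ratios of −1.43 and −1.04. There the control value was that of 1 peak of 362.629 kb, and the K27M values were those of peaks of 1.51 and 6.025 kb. These ratios therefore set a whole domain against local peaks. Fold enrichment is scaled within a library and was not adjusted to the Drosophila spike-in, so it says how far a peak stands above input and not how much H3K27me3 a cell held. Within their own lists the strongest HoxB peaks held ranks between 15 and 165 by fold enrichment over the 10 libraries.

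H3K4me3 peaks of the cluster lay mostly in brainstem. They covered 3.74% and 12.8% of the cluster in brainstem controls 59 and 61, and 33.5% and 15.2% in brainstem K27M. In telencephalon they covered 0%, 1.89% and 0.760% in controls 59, 60 and 61 and 0% in each of the 3 K27M libraries. Every brainstem library lay above every telencephalon library. Telencephalon minus brainstem was −7.37 percentage points in controls and −24.3 in K27M, each with p = 0.1 by exact permutation, the smallest value 2 against 3 libraries allow. The size rests on which brainstem culture is counted: without brainstem 59 the differences were −11.9 and −15.2 points, and without brainstem 61 −2.86 and −33.5.

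**Figure D3:**
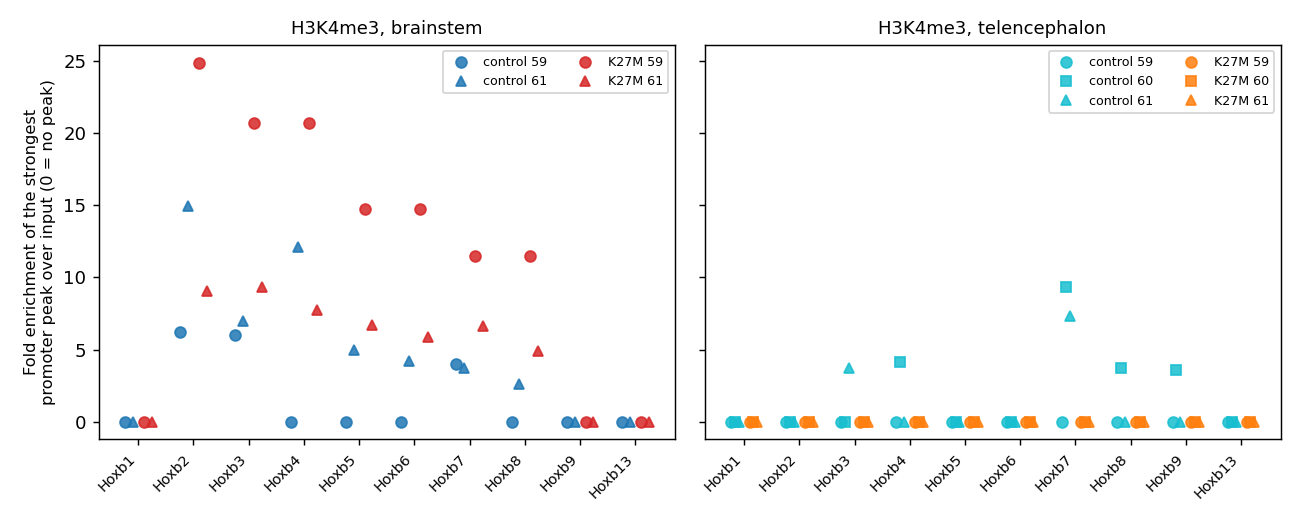
Fold enrichment of the strongest H3K4me3 peak at each member's promoter, with 0 where there was no peak, brainstem left and telencephalon right, 1 point per library (circle 59, square 60, triangle 61; colours as in the legends). Brainstem K27M points are highest at Hoxb2 or Hoxb3 and lowest at Hoxb8 among Hoxb2 to Hoxb8, Hoxb1, Hoxb9 and Hoxb13 are at 0 in brainstem, and the 3 telencephalon K27M libraries are at 0 throughout.

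The number of members with an H3K4me3 promoter peak was 3 and 7 in brainstem controls 59 and 61 and 7 and 7 in K27M, against 0, 4 and 2 in telencephalon controls and 0, 0 and 0 in K27M. Telencephalon minus brainstem was −3 members in controls (exact permutation p = 0.3), with −5 without brainstem 59, −1 without brainstem 61 and −2 without telencephalon 59, and −7 in K27M (p = 0.1). In K27M, Hoxb2 to Hoxb8 (7 members) had a peak in both brainstem libraries and in none from telencephalon, a pattern held by 20 of 21951 genes (0.0911%), with 3 in HoxA, 2 in HoxC and 2 in HoxD. In controls 6 genes had it (0.0273%), among them Hoxb2. Over both genotypes, with a peak in all 4 brainstem and none of 6 telencephalon libraries, Hoxb2 was the only gene of 21951 (0.00456%). Presence in a list depends on its peak threshold and on depth, and brainstem control 59 had the fewest H3K4me3 reads in the study's list. No member met the reverse pattern.

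Of the anterior members, Hoxb1, which specifies hindbrain rhombomere 4 (chr11:96365752-96368256), had no H3K4me3 peak in any of the 10 libraries. At Hoxb2 (chr11:96350525-96354012) the strongest peak was 6.25 and 15.0-fold in brainstem controls 59 and 61 and 24.9 and 9.04-fold in K27M. K27M was thus above its control in culture 59 and below it in culture 61. In 3 of the 4 libraries the summit lay in a coding exon 1564 to 1615 bp downstream of the start of the principal transcript.

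Hoxb3 (chr11:96323326-96347930), which acts in the posterior hindbrain, has several promoters. Its strongest promoter peak was 6.03 and 6.98-fold in the brainstem controls and 20.7 and 9.32-fold in K27M, higher in K27M in both pairs. Telencephalon control 61 had a peak of 3.73-fold. In brainstem K27M 59 the strongest peak was the one shared with Hoxb4. In the other 3 of 4 brainstem libraries the summit lay 17568 to 18681 bp into the gene, at an internal promoter within an intron, where the antisense transcript Gm11536 is also annotated. The peaks can therefore not be given to one strand.

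Hoxb4 (chr11:96318267-96321638), a regulator of the posterior hindbrain and of blood stem cells, had no peak in brainstem control 59, 12.1-fold in control 61, and 20.7 and 7.74-fold in K27M. Brainstem K27M 59 had 1 peak of 11.132 kb over Mir10a, Hoxb4 and the first promoter of Hoxb3. Telencephalon control 60 had a peak of 4.11-fold.

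The central members Hoxb5 to Hoxb8, which pattern neck, trunk and spinal cord, each had brainstem K27M 59 highest, K27M 61 next and both controls below. Hoxb5 (chr11:96303336-96306121) had no peak in control 59, 4.96-fold in control 61, and 14.8 and 6.68-fold in K27M. Hoxb6 (chr11:96292476-96301569) had none in control 59, 4.23-fold in control 61, and 14.8 and 5.84-fold in K27M, its peak in K27M 59 being the one shared with Hoxb5. The controls and K27M libraries of both genes did not overlap.

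Hoxb7 (chr11:96286623-96290162) stood at 4.00 and 3.72-fold in brainstem controls and 11.5 and 6.63-fold in K27M. Hoxb8 (chr11:96281905-96285315) had no peak in control 59, 2.59-fold in control 61, and 11.5 and 4.89-fold in K27M, the first shared with Hoxb7. The length of promoter under H3K4me3 separated the genotypes in brainstem at Hoxb4 to Hoxb8 (5 members), where both K27M libraries exceeded both controls, a pattern met by 5.41% of the 21951 genes. At Hoxb5 that length was 0 and 1003 bp in controls and 3000 and 1667 bp in K27M, and at Hoxb8 0 and 321 bp against 2165 and 1193 bp. At Hoxb2 and Hoxb3 the control 61 value lay above K27M 61.

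The posterior members carried almost no H3K4me3. Hoxb13 (chr11:96194316-96197447), which acts in tail and prostate development, had no peak in any library. Hoxb9 (chr11:96271457-96276595), which acts in thoracic patterning, had 1 peak in 10 libraries, of 3.58-fold, in telencephalon control 60, with 298 bp inside its promoter window. None of the members had a peak in both K27M and in neither control of brainstem, a pattern of 31 genes (0.141%). With peaks of at least 3-fold enrichment Hoxb8 had it, 1 of 32 genes (0.146%).

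Across both regions K27M minus control gave 5.89 percentage points of H3K4me3 cover (SD 13.4, n = 5; exact sign-flip permutation p = 0.625) and −0.4 members (SD 2.97; p = 1). The mean rests on brainstem 59: its difference was 29.7 points, against 2.40 in brainstem 61 and 0, −1.89 and −0.760 in telencephalon 59, 60 and 61. Without brainstem 59 the mean was −0.0625 points. The H3K4me3 list of brainstem K27M 59 covered 48.6 Mb of genome against 38.7 Mb in its control, and in culture 61 the order was opposite, 31.3 Mb against 38.1 Mb. By the study's list of libraries, brainstem K27M 59 had more H3K4me3 reads than its control, and K27M 61 had fewer than its control. Brainstem control 59 had the fewest reads of all H3K4me3 libraries there. The part of cover and of reads in the HoxB values was not tested.

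The telencephalic peaks were few and short, and all but the one in Hoxb9 overlapped a brainstem peak. Telencephalon control 60 had 6 H3K4me3 peaks in the cluster and control 61 had 2, the longest of 0.867 and 0.912 kb, whereas the longest peaks were 2.824 and 4.218 kb in brainstem controls 59 and 61 and 11.132 and 4.138 kb in brainstem K27M. The Hoxb7 value of telencephalon (9.31 and 7.35-fold) came from a peak whose summit lay in an exon of Hoxb8, at −2091 and −2176 bp from the Hoxb7 start, and which met the Hoxb7 window by its edge. The same site gave the Hoxb7 value of both brainstem controls (summits at −2166 and −2154 bp), while in K27M the strongest Hoxb7 peak had its summit 215 and 224 bp downstream of the start. Brainstem control 61 also had a weaker peak there, of 3.41-fold with its summit 257 bp downstream, and control 59 had none. The strongest telencephalic peak of the cluster, 12.5-fold in control 60, lay in a coding exon of Hoxb3 outside all promoter windows.

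H3K4me3 lay inside H3K27me3 domains. In brainstem, 100% and 89.9% of the H3K4me3-covered bases of the cluster were also under an H3K27me3 peak in controls 59 and 61, and 89.5% and 100% in K27M. In telencephalon controls 60 and 61 it was 100%. As H3K27me3 covered most of the cluster, a high overlap follows from its extent.

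Peaks found again across cultures were combined into a consensus for each group, and promoters were named by the marks they had. In brainstem control Hoxb2, Hoxb3 and Hoxb7 (3 of 10) were bivalent and the other 7 had H3K27me3 only. At Hoxb7 this rests on the Hoxb8 exon peak, which was its only H3K4me3 peak in control 59, with 108 bp inside its window. In brainstem K27M Hoxb2 to Hoxb8 (7 of 10) were bivalent. A consensus peak needs 2 cultures, which is both in brainstem and 2 of 3 in telencephalon. Brainstem control 61 alone had H3K4me3 at the same 7 members, so the control count follows control 59, which had 3. In telencephalon control Hoxb7 was bivalent, by the Hoxb8 exon peak, and in telencephalon K27M all 10 members had H3K27me3 only. Over all protein-coding genes bivalent promoters numbered 2045 in brainstem control, 1353 in brainstem K27M, 3179 in telencephalon control and 1522 in telencephalon K27M.

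The non-coding genes inside the cluster followed their neighbours. Mir10a had the states of Hoxb4, H3K27me3 only in brainstem control and bivalent in brainstem K27M, and Mir196a-1 had H3K27me3 only in all 4 groups, like Hoxb9. The antisense genes Hoxb5os, Gm11536 and Hoxb3os had the states of their nearest member. The first coding genes outside the cluster, Ttll6 and Skap1, had H3K27me3 only in brainstem control, brainstem K27M and telencephalon control. In telencephalon K27M the consensus gave Ttll6 H3K4me3 only and Skap1 both marks, with H3K4me3 in 2 of 3 libraries at each and H3K27me3 in 2 of 3 at Ttll6 (at most 3.13-fold) and 3 of 3 at Skap1. With a peak required in every culture Ttll6 was unmarked in both telencephalon groups and Skap1 had H3K27me3 only.

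**Figure D4:**
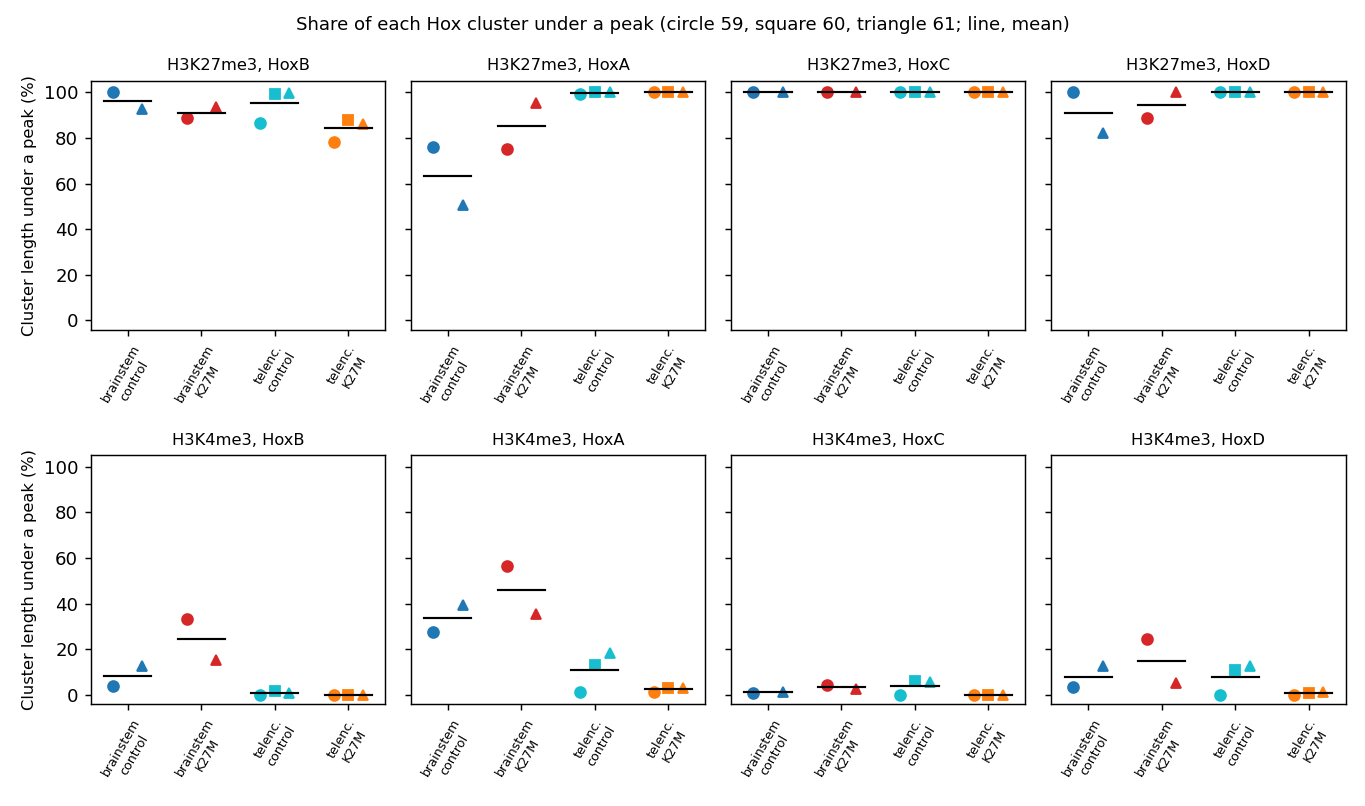
Share of each Hox cluster under a peak in percent (vertical axis) for H3K27me3 (top row) and H3K4me3 (bottom row), 1 point per library (circle 59, square 60, triangle 61) with the group mean as a line. HoxA had less H3K27me3 in brainstem than in telencephalon, and H3K4me3 in HoxB was above 3% only in brainstem.

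Other Hox clusters in the same libraries differed in how far the regions parted. HoxA was 76.0% and 50.8% covered by H3K27me3 in brainstem controls and 99.2 to 100% in telencephalon controls. The regional difference (telencephalon minus brainstem, controls) of HoxB minus that of HoxA was −37.5 percentage points (exact permutation p = 0.1, Benjamini-Hochberg adjusted over 3 comparisons 0.3). Minus that of HoxC it was −1.11 (0.8, adjusted 0.8), and minus that of HoxD −9.98 (0.3, adjusted 0.45). None passed the adjustment. For H3K4me3, brainstem K27M covered 56.7% and 35.3% of HoxA, 4.11% and 2.77% of HoxC and 24.6% and 5.35% of HoxD. In telencephalon control, 9 of 11 HoxA, 7 of 9 HoxC and 7 of 9 HoxD genes were bivalent, against 1 of 10 in HoxB. With a peak required in every culture these counts were 2, 0, 0 and 0, so the contrast between clusters rests on the consensus rule. In brainstem K27M the counts were 6, 2 and 3, against 7 in HoxB.

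The partners of HOX proteins were in another state. Of 8 TALE cofactors (Pbx2 to Pbx4, Meis1 to Meis3, Pknox1 and Pknox2), which bind DNA together with HOX proteins, 7 had H3K4me3 only in brainstem control, 8 in brainstem K27M, 8 in telencephalon control and 7 in telencephalon K27M, with Pbx3 bivalent in the remainder. Over all protein-coding genes H3K4me3 only was the commonest state, at 52.0%, 54.5%, 49.5% and 56.0% in the same groups. Of 10 genes that set Hox expression in the embryo, 4, 4, 6 and 4 were bivalent in these groups. Bivalent promoters made up 9.32%, 6.16%, 14.5% and 6.93% of all protein-coding genes. Egr2 (Krox20), which acts on anterior Hox genes in the hindbrain, was bivalent in all 4 groups, the retinoic acid receptors Rarb and Rarg had H3K4me3 only in all 4, and the caudal factor Cdx4 had H3K27me3 only in all 4.

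The genes most like Hoxb3 and Hoxb9 in promoter cover were found by the mean absolute difference in covered base pairs over the 20 libraries. For Hoxb3 these were Gm28308 (191.8 bp) and 5730596B20Rik, which overlap HoxA genes, Gm28230, which overlaps HoxD genes, and then Tfap2b and Msx2 (384.9 bp). For Hoxb9 they included Prdm14 (2.6 bp), Skor2, Evx2 and C1qtnf1 (14.9 bp). All 4 of the latter had H3K27me3 in 10 of 10 libraries.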

How the data were processed

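Peak lists of 20 ChIP-seq libraries were used, and inputs were not used. Reads were mapped to mm10 by the authors (BWA 0.7.17-r1188 in the submitters' processing notes), and MACS2 2.2.7.1 compared each library with its own input to call broad (cutoff 0.1, H3K27me3) or narrow (H3K4me3) peaks. Each deposited peak has a ratio to input (fold enrichment), a −log10 p and a −log10 q value, all of them the authors'. The deposited summit of a narrow peak, an offset in base pairs, was used for places. No read counts were used, so depth limits the lists in a way that was not measured, and differences below the peak threshold cannot be seen.

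Peaks were joined to GENCODE M21 promoters (from 2000 bp before to 1000 bp after every annotated start, sharing at least 1 bp) in Python 3.11.15 with numpy 2.4.6, pandas 2.3.3 and scipy 1.17.1. For the consensus of a group, the MSPC rule was applied with p-values of 1e-10 and 1e-06 (H3K4me3) or 1e-08 and 1e-04 (H3K27me3) in at least 2 cultures. Functions were tested on simulated data. K27M and control were paired by region and culture number, as the study assayed matched cultures together. Deviations from group means of covered promoter length correlated within pairs over 21951 genes at 0.74, 0.43 and 0.52 for H3K4me3 and 0.55, 0.41 and −0.03 for H3K27me3 in telencephalon 59, 60 and 61, and at 0.07 and −0.11 in brainstem. The paired test is a two-sided exact sign-flip permutation over 32 arrangements. Regions were compared by exact permutation over 10 splits. A difference was read as passing at p under 0.05, which neither test can reach here. The members and lists were chosen with earlier results of these data known. The named genes are all members, the first coding gene on each side, the non-coding genes between, counts for the other clusters and for cofactor and regulator lists, and the 5 genes most like Hoxb3 and Hoxb9. Some genes covered by this rule or these lists are not reported here, and the list counts leave them out. The fold enrichment of the strongest peak, the stretch between Hoxb13 and Hoxb9, the summit places and the microRNAs were added after the data were seen. Alternatives were stricter peaks, equal numbers of peaks, other overlaps, windows and cluster limits, no pairing, and each culture left out.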

Additional observations from a re-analysis of the deposited data

How the results depend on the processing

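K27M minus control of H3K27me3 share (−8.68 points) was −0.70 from Hoxb9 to Hoxb1. The order of the H3K27me3 share between regions in controls (−1.11 points) depends on the choices. It was 1.52 with −log10 q of at least 3, 0.623 with fold enrichment of at least 3, 2.36 with equal numbers of peaks and 5.50 from Hoxb9 to Hoxb1, and ranged from −4.74 to 3.23 with 1 culture left out; the contrast with HoxC has the same values, as HoxC was fully covered. In K27M it was 7.25 from Hoxb9 to Hoxb1. The number of members with H3K27me3 differed by 0.2 (K27M minus control) with −log10 q of at least 3 or equal numbers of peaks, and by 0.5 between regions with −log10 q of at least 3 (controls), equal numbers of peaks (controls) or fold enrichment of at least 3 (both genotypes). With that last setting 1.8% of genes, and all members but Hoxb2, had H3K27me3 in all 10 libraries.

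For H3K4me3, K27M minus control ranged from −0.0625 to 7.84 points with 1 pair left out. The members with a peak (−0.4) differed by 0.6 with equal numbers of peaks, 1 with at least 500 bp of overlap and 0.2 with promoters of 1000 bp on each side, and from −1.5 to 0.5 with 1 pair left out. With a peak required in every culture, 0 members were bivalent in telencephalon control. The cause of these shifts was not tested.

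Without the culture pairing, p was 0.0833 for H3K27me3 share, 0.4 for H3K4me3 share, and 0.0333 for the strongest peak's log2 ratio (1.37) and for the stretch between Hoxb13 and Hoxb9 (−20.0 points), the last 2 under 0.05. Pairing cultures 59 and 61 across regions changed no direction (H3K27me3 share in controls −3.21 points). With brainstem cultures crossed, 0 of 2 H3K27me3 results passed 0.05, which 5 pairs cannot reach, and both stood at the smallest p, 0.0625. Both results under 0.05 without pairing were added after the data were seen. Over all alternatives 17 values reversed and 8 moved; as the main tests cannot pass 0.05, a result that stayed short of it says nothing of stability.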
